A study of Mus musculus with 9 samples.

Results

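The multidomain proteins of the BCL2 family that decide on mitochondrial cell death were followed in RiboSeq data of inflammatory macrophages. The 9 genes are the survival genes Bcl2, Bcl2l1 (BCL-XL), Bcl2l2 (BCL-W), Mcl1, Bcl2a1b and Bcl2a1d (A1) and the effector genes Bax, Bak1 and Bok. They were picked by gene name, with earlier results of these data known but with no measured value in the rule, and all 9 have a row among the 16921 gene identifiers of the footprint table. The cells were bone marrow-derived macrophages of TTP-deficient mice. They had been immortalized with human c-myc and the hRasG12V oncogene, kept as CD11b and F4/80 positive cells and transduced with a tetracycline-inducible vector. The vector coded for GFP alone (GFP macrophages), for GFP fused to tristetraprolin (GFP-TTP macrophages) or for a fusion in which both MK2 phosphorylation sites of TTP are alanines (GFP-TTP-AA macrophages). Every culture received doxycycline at 1 µg/ml for 6 h and LPS at 1 µg/ml for 1 h, so that no untreated sample enters. There were 3 libraries for each of the 3 conditions. Each condition is 1 separately transduced line and all lines carry the oncogenes, which limits them as a model of primary macrophages. A property of a line cannot be told apart from an effect of the protein it expresses. Nothing states that the libraries came from independent experiments, so the errors measure the spread between these libraries.

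BCL2 family proteins meet at the outer membrane of the mitochondrion. BAX and BAK open this membrane by forming oligomers, which releases cytochrome c and starts the caspases, while BCL2, BCL-XL, BCL-W, MCL1 and A1 hold the effectors and their BH3-only activators back. MCL1 is a short-lived protein, and A1 is best known as an NF-κB-induced survival protein of leukocytes. TTP, the product of Zfp36, binds AU-rich elements in 3′UTRs and drives decay and translational arrest of the bound mRNAs, and phosphorylation by MK2 after LPS weakens it. The 3 comparisons therefore ask whether footprints on these genes differ with TTP, with TTP that MK2 cannot phosphorylate, and between both forms.

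RiboSeq counts mRNA fragments covered by ribosomes. The study also sequenced total RNA from the same lysates, but those mRNA levels were not used here. With footprints alone, mRNA abundance and translation cannot be told apart. In bulk samples the same holds for fewer cells and less RNA per cell. The deposited table does not hold observed counts but what the authors' model fitted for each gene and library. Its spread between libraries of a condition is only the term that runs with the replicate number, and this term is the same in all 3 conditions. Overlap of libraries between conditions is therefore a description, and errors are the standard errors (SE) of the authors' model. Values below are fitted footprints divided by the size factor of the library (0.414 to 2.13), and a level is their geometric mean over the 3 libraries. In these values the model has shrunken differences between conditions towards 0, in levels as much as in fold changes. Summed fitted values per library ran from 2570292 to 12804501. Zfp36 had a level of 459 in GFP, 926.5 in GFP-TTP macrophages and 1536 in those with GFP-TTP-AA, and thus higher in both lines labelled with TTP (adjusted p = 0.0049 and 2.3e-09 against GFP). Between both TTP forms it was 1.66-fold higher with TTP-AA (0.73 ± 0.25 on the log2 scale, SE, adjusted p = 0.039). Shrinkage kept an estimated 52.1% of this log2 change, so the value given is smaller than the unshrunken one. The lines compared for the called members thus also differ in footprints on Zfp36, and the part of this in the results was not tested. The GFP line is labelled TTP-deficient, and its footprints on Zfp36 were not examined further. A row was present for all 10 distinct macrophage markers (Adgre1 under its older name Emr1). All were over the minimum of 10 (mean fitted value over the 9 libraries) that was set for testing. Of the T cell, B cell, fibroblast, epithelial and erythroid markers, rows were present for 3 of 6, 2 of 5, 3 of 6, 1 of 4 and 1 of 5. Of these markers 0 reached this minimum. Of 6 neutrophil markers S100a8 did, and the list summed to 28.4, 26.9 and 57.4 in GFP, GFP-TTP and GFP-TTP-AA macrophages, with Elane, Ly6g and S100a9 without a row. The part of this difference in the results was not tested.

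Footprints on the family came nearly all from Mcl1, Bax, Bak1 and Bcl2l1. Levels of different genes are compared per kb of coding sequence. In GFP macrophages Mcl1 led with 3300 footprints per kb (libraries 2740 to 4180). Bax followed with 2270 (2100 to 2390), Bak1 with 830 (653 to 971) and Bcl2l1 with 640 (519 to 843). The ranges of Bak1 and Bcl2l1 overlapped. These ranges hold only the fitted replicate term, so whether neighbours in this order differ was not tested. Bcl2 had 69.9 per kb, Bcl2a1b 28.3, Bcl2a1d 5.16, Bcl2l2 4.35 and Bok 0.348. In GFP-TTP macrophages the ranges of Mcl1 (2030 to 3090) and Bax (1990 to 2260) overlapped as well, and Bcl2l1 (805 per kb) stood before Bak1 (783 per kb), again with overlapping ranges. In GFP-TTP-AA macrophages the order was that of GFP macrophages, and no neighbouring ranges overlapped. In this condition Bak1 had 1120 per kb (882 to 1310) and Bcl2l1 559 per kb (453 to 736).

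**Figure D1:**
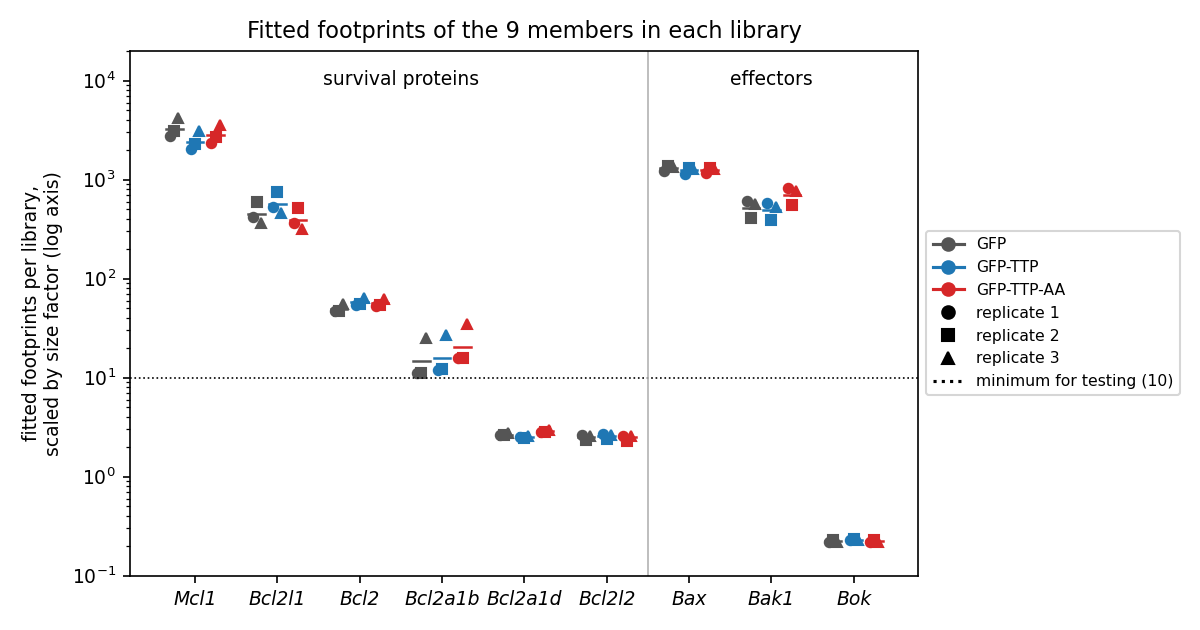
Fitted footprints of the 9 genes in each library, scaled by size factor, on a log axis. Points are libraries, with 3 per condition and the symbol giving the replicate number, short lines are levels, and the dotted line is the minimum of 10 for testing. Mcl1, Bax, Bak1 and Bcl2l1 lie above Bcl2 in every library, while Bcl2a1d, Bcl2l2 and Bok stay below the minimum in all libraries.

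Of the 9 genes, 6 had a fitted mean over the minimum of 10, and these were tested. Bcl2l2, Bcl2a1d and Bok (fitted means of 2.52, 2.69 and 0.225) were not, and no change is given for them. The Wald p of the authors' DESeq2 model was adjusted by the Benjamini-Hochberg method over all tested genes. In GFP-TTP against GFP macrophages 0 of the 6 passed the threshold of 0.05, where 2.09% of all 9938 tested genes did. In GFP-TTP-AA against GFP macrophages 0 of the 6 passed, where 3.03% of 10103 genes did. The unadjusted Wald p was under 0.05 for 2 of the 6 in each of these comparisons. Many other genes were as low. In GFP-TTP against GFP macrophages 1107 of the 9938 tested genes had a smaller p than Bcl2l1 (0.049). In GFP-TTP-AA against GFP macrophages 1273 of 10103 had a smaller p than Bcl2a1b (0.039). The unadjusted counts of the gene lists below have the same background. In GFP-TTP-AA against GFP-TTP macrophages 2 of the 6 passed, where 10.2% of 10103 genes did. Bak1 was higher and Bcl2l1 lower in GFP-TTP-AA macrophages. With 6 genes, 2 calls are too few to read anything particular to the family from this background. Their median log2 fold changes were 0.02, 0.07 and 0.12 in the 3 comparisons, beside 0, 0.01 and 0.01 for all tested genes. The comparisons share libraries in pairs and are not independent of each other.

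**Figure D2:**
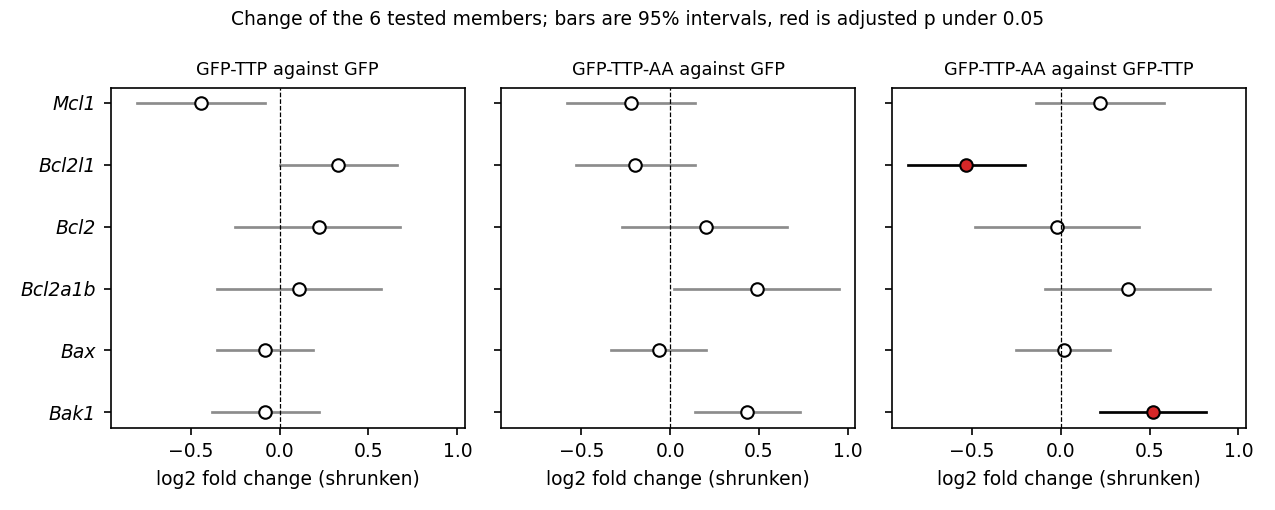
Shrunken log2 fold changes of the 6 tested genes in the 3 comparisons, with 95% intervals (1.96 SE) and red points for an adjusted p under 0.05. Only Bcl2l1 (-0.53) and Bak1 (0.52) in GFP-TTP-AA against GFP-TTP macrophages are red.

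Bcl2l1 was the only survival gene past the threshold in any comparison. Its protein BCL-XL sits in the outer membrane and binds BAX, BAK and BH3-only proteins. The gene spans chr2:152780668-152831728 of GRCm38 (minus strand), with 699 coding bases in 2 exons. Replicates 1, 2 and 3 had 419.5, 589.2 and 362.5 footprints in GFP, 527.6, 741 and 455.9 in GFP-TTP macrophages and 366.5, 514.7 and 316.7 in those with GFP-TTP-AA. Replicate 2 was the highest of each condition, GFP-TTP the highest condition, and the ranges of the conditions overlapped. The level was 562.8 in GFP-TTP macrophages and 390.9 in those with GFP-TTP-AA, a log2 fold change of -0.53 ± 0.17 (SE here and below, n = 3 and 3 libraries, 95% interval -0.86 to -0.2, adjusted p = 0.023, DESeq2 Wald test). In linear terms Bcl2l1 had 1.44-fold more footprints with TTP than with TTP-AA. Against GFP macrophages (447.5) the log2 fold change was 0.33 ± 0.17 in GFP-TTP macrophages (adjusted p = 0.44) and -0.2 ± 0.17 in those with GFP-TTP-AA (adjusted p = 0.69), neither past the threshold. Genes of chromosome 2 had a median of -0.06 in the comparison of both TTP forms, and relative to this median the change of Bcl2l1 was -0.47 with an adjusted p of 0.056, which ends the call.

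Mcl1 had the most footprints of the family, with rank 301 of the 16921 genes by fitted mean. Its protein protects mainly against BAK and is replaced within a short time. The gene spans chr3:95658788-95663176 (plus strand) and has 993 coding bases in 3 exons. Replicates 1, 2 and 3 had 2725, 3114 and 4151 footprints in GFP, 2013, 2301 and 3066 in GFP-TTP macrophages and 2344, 2680 and 3572 in those with GFP-TTP-AA. Replicate 3 was high throughout and the ranges overlapped. The log2 fold change in GFP-TTP against GFP macrophages was -0.44 ± 0.18 (95% interval -0.8 to -0.08), a larger absolute value than that of 93.4% of tested genes, with an adjusted p of 0.28. Chromosome 3 had a median of -0.18 over 467 genes in this comparison, so that -0.26 was left for Mcl1 relative to its chromosome. The remaining changes were those of GFP-TTP-AA macrophages, with -0.22 ± 0.18 against GFP (adjusted p = 0.68) and 0.22 ± 0.18 against GFP-TTP (adjusted p = 0.53).

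AU-rich motifs in the annotated 3′UTRs are shown for Mcl1, Bcl2l1 and Bcl2 because TTP binds such elements, and the 3 genes are the only members with the heptamer TATTTAT. The 3′UTR of the transcript with the longest coding sequence was searched on the sense strand for ATTTA and for TATTTAT, and every TATTTAT contains an ATTTA. Among the 9845 genes over the minimum with an annotated 3′UTR, 66.7% hold an ATTTA and 27.8% a TATTTAT. Mcl1 holds 8 ATTTA, of which 3 lie in a TATTTAT, in 2353 bases, Bcl2l1 1 of each in 1473 bases, and Bcl2 15 and 2 in 5086 bases. Bcl2l2 holds 4 ATTTA in 2701 bases, and Bok, Bcl2a1b and Bcl2a1d hold 1 each. Bax and Bak1 hold none in 165 and 1121 bases. Of the 2 members that passed the threshold, Bcl2l1 has 1 such motif and Bak1 has none. The stretches of 30 bases below are written 5′ to 3′ with the motifs in capitals. Those of Mcl1 lie on the plus strand at chr3:95660881-95660910, chr3:95662577-95662606 and chr3:95662602-95662631, that of Bcl2l1 on the minus strand at chr2:152780892-152780921, and those of Bcl2 on the minus strand at chr1:106542995-106543024 and chr1:106539916-106539945. The motif begins 70, 1766 and 1791 bases (Mcl1), 1236 bases (Bcl2l1) and 252 and 3331 bases (Bcl2) after the stop codon, counted to the first base of TATTTAT. In the first stretch of Bcl2, overlapping ATTTA motifs run into each other. A match is a description of the sequence and not a measured binding site.
Mcl1, the first: tgaaaacatgtgTATTTATgaaggtggact
Mcl1, the second: tttgtacctgtgTATTTATccttgatcata
Mcl1, the third: tcatagtttgctTATTTATgtttaactctt
Bcl2l1: taagcgtgtctgTATTTATgtgtgaggagc
Bcl2, the first: aaaaaaaagATTTATTTATTTAagacagtt
Bcl2, the second: caggcatattctTATTTATtacatctaaga

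Bcl2, the founding member of the family, was far below Mcl1 and Bcl2l1. It spans chr1:106538178-106714274 (minus strand) and has 708 coding bases in 2 exons. Replicates 1, 2 and 3 had 46.7, 47.4 and 54.9 footprints in GFP, 54.2, 55.0 and 63.8 in GFP-TTP macrophages and 53.5, 54.3 and 62.9 in those with GFP-TTP-AA. GFP macrophages were the lowest condition and the ranges overlapped. The log2 fold change was 0.22 ± 0.24 in GFP-TTP macrophages (95% interval -0.25 to 0.68, adjusted p = 0.81) and 0.2 ± 0.24 in those with GFP-TTP-AA (-0.27 to 0.66, adjusted p = 0.81), both against GFP. Between both TTP forms it was -0.02 ± 0.24 (-0.48 to 0.44, adjusted p = 0.97), so that changes in either direction remain within the interval.

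The A1 genes are near-identical copies on chromosome 9, which limits what their values mean. Bcl2a1b spans chr9:89199209-89207827 (plus strand), Bcl2a1d chr9:88723285-88731914 (minus) and the further copy Bcl2a1a chr9:88956900-88962419 (plus). Their coding sequences of 519 bases with the stop codon differ at 6 positions between Bcl2a1b and Bcl2a1d and at 11 between Bcl2a1b and Bcl2a1a, with 12 variable positions among the 3. The first 60 coding bases are shown because they hold 6 of these 12 positions, which are in capitals. On GRCm38 they are chr9:89199360-89199419 (plus), chr9:88731660-88731719 (minus) and chr9:88957051-88957110 (plus).
Bcl2a1b: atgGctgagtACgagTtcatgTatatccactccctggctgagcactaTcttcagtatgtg
Bcl2a1d: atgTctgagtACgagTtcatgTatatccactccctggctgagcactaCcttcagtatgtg
Bcl2a1a: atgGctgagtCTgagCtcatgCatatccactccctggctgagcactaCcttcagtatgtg

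Of the windows of 28 bases in the coding sequence, about the length of a footprint, 65.7% of Bcl2a1b and 92.7% of Bcl2a1d occur at more than 1 place in the genome, and 54.7% and 63.2% at more than 2. The aligner kept at most 2 places per read, and how reads with several places were counted is not given in the sources used here. Levels of Bcl2a1b, Bcl2a1d and Bcl2a1a (1.08, 1.08 and 1.21 for the last in GFP, GFP-TTP and GFP-TTP-AA macrophages) are therefore uncertain, and Bcl2a1c has no row. Of Bcl2a1b, 93.5% of windows also lie in transcripts of another annotated gene, among them Gm29094, which shares 401 of its 516 coding bases and has no row.

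**Figure D3:**
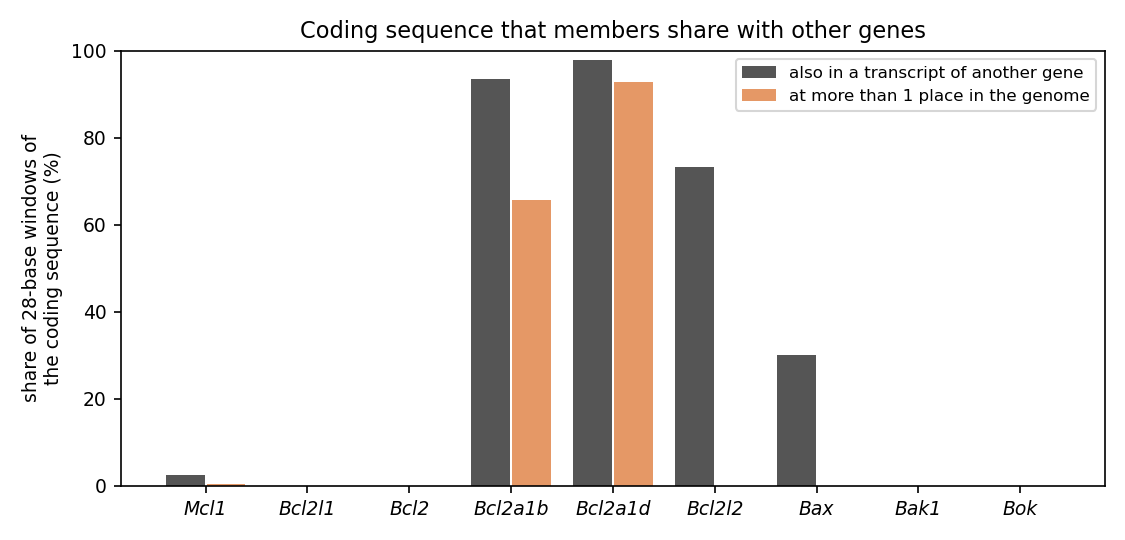
Share of 28-base windows of each coding sequence (%) that also lie in a transcript of another gene (grey) or at more than 1 place in the genome (orange). The A1 genes share most windows in both senses. Bcl2l2 (73.2%) and Bax (30.1%) share windows only with annotated genes that overlap them, Mcl1 shares 2.48%, and Bcl2l1, Bcl2, Bak1 and Bok share none.

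Bcl2a1b had 11.1, 11.2 and 24.9 footprints in replicates 1, 2 and 3 of GFP, 12.0, 12.1 and 26.9 of GFP-TTP and 15.6, 15.7 and 34.9 of GFP-TTP-AA macrophages. Replicate 3 was 2.23-fold above replicate 1, more than for any other member, and the ranges of all conditions overlapped. The levels were 14.6, 15.8 and 20.5. The log2 fold change of GFP-TTP-AA was 0.49 ± 0.24 against GFP (95% interval 0.02 to 0.95, adjusted p = 0.31) and 0.38 ± 0.24 against GFP-TTP macrophages (-0.09 to 0.84, adjusted p = 0.36), and that of GFP-TTP against GFP macrophages was 0.11 ± 0.24 (adjusted p = 0.92). The model shrinks changes towards 0, and by how much did not follow coverage alone. An SE fits 2 values of the part the model kept, and the fitted mean of the gene decided which was taken. This part was estimated as 33.5% to 34.1% for Bcl2a1b (the lower value) and 66.7% to 67.1% for Bcl2 (the higher). Both genes have an SE of 0.24, so the difference between them rests on this choice. For Zfp36, with a fitted mean of 976, the part kept was 52.1% to 52.2%. It was 83.9% for Mcl1, 86.9% to 87.1% for Bcl2l1, 89.5% to 89.6% for Bak1 and 91.8% for Bax, so that fold changes of different members are not on quite the same footing. Fitted values ran from 2.47 to 2.97 footprints for Bcl2a1d and from 2.31 to 2.67 for Bcl2l2 over all libraries. Differences between conditions are shrunken in these values as well, so they do not show whether expression was stable. Bcl2l2 spans chr14:54883377-54888234 (plus strand), and 432 of its 681 annotated coding bases also belong to the readthrough gene Gm20521, which has no row.

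Among the effectors, Bak1 was higher in GFP-TTP-AA than in GFP-TTP macrophages, while Bax passed the test in 0 of 3 comparisons. BAK is inserted in the outer membrane before any death signal, where MCL1 and BCL-XL hold it. Bak1 spans chr17:27019810-27029009 (minus strand), with 627 coding bases in 5 exons. Replicates 1, 2 and 3 had 608.6, 409.4 and 564.8 footprints in GFP, 574.7, 386.6 and 533.3 in GFP-TTP macrophages and 822.5, 553.3 and 763.3 in those with GFP-TTP-AA. Replicate 2 was low in each condition. Replicates 1 and 3 of GFP-TTP-AA macrophages lay above all libraries of the other conditions, and replicate 2 lay within their ranges. As the replicate term is the same in all conditions, this does not show that replicate 2 lacked the change. The log2 fold change of GFP-TTP-AA against GFP-TTP macrophages was 0.52 ± 0.15 (95% interval 0.22 to 0.82, adjusted p = 0.012), or 1.43-fold. Against GFP macrophages it was 0.43 ± 0.15 (0.14 to 0.73), or 1.35-fold, with an adjusted p of 0.095. In GFP-TTP against GFP macrophages it was -0.08 ± 0.15 (-0.38 to 0.22, adjusted p = 0.91). Chromosome 17 had a median of -0.02 in the comparison of both TTP forms, and Bak1 stayed past the threshold relative to it (0.54, adjusted p = 0.0087). The annotated coding exons of Bak1 overlap 143 bases of Ggnbp1 on the other strand, a gene with a fitted mean of 15.3 against a level of 491.1 or more for Bak1.

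BAX differs from BAK in that it waits in the cytosol and moves to mitochondria upon a death signal. Bax spans chr7:45461697-45466898 (minus strand) and has 576 coding bases in 6 exons. Replicates 1, 2 and 3 had 1211, 1374 and 1344 footprints in GFP, 1146, 1300 and 1272 in GFP-TTP macrophages and 1158, 1314 and 1285 in those with GFP-TTP-AA. All 9 libraries lay within a narrow band and the conditions overlapped. The log2 fold changes were -0.08 ± 0.14 in GFP-TTP against GFP (95% interval -0.35 to 0.19, adjusted p = 0.89), -0.06 ± 0.14 in GFP-TTP-AA against GFP (-0.33 to 0.2, adjusted p = 0.92) and 0.02 ± 0.14 between both TTP forms (-0.25 to 0.28, adjusted p = 0.96). The last interval does not reach the value measured for Bak1, but the difference between both effectors was not tested. A later gene model, Gm45808, shares 192 of 614 coding bases with Bax on the same strand and has no row. Bok, the least studied effector of this kind (chr1:93685660-93695764, plus strand), had between 0.22 and 0.235 fitted footprints per library, less than 1 read.

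The make-up of the family is given as the share of each gene in the summed level per kb. Mcl1 had 46.2% in GFP, 38.7% in GFP-TTP macrophages and 41.6% in those with GFP-TTP-AA. Bax had 31.8%, 34.1% and 31.8%. Bak1 had 11.6%, 12.4% and 16.4%, and Bcl2l1 8.95%, 12.8% and 8.2%. The survival genes together had 1.31, 1.15 and 1.07 times the footprints per kb of the effectors in GFP, GFP-TTP and GFP-TTP-AA macrophages. The shares and this sum include the uncertain levels of the A1 genes. The ratio of Bcl2l1 to Bak1 per kb was 0.771, 1.03 and 0.499 in the same order. The tables give no covariance between genes, so these ratios have no error and were not tested. Footprints also do not measure the amount of protein, above all for a short-lived one such as MCL1.

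**Figure D4:**
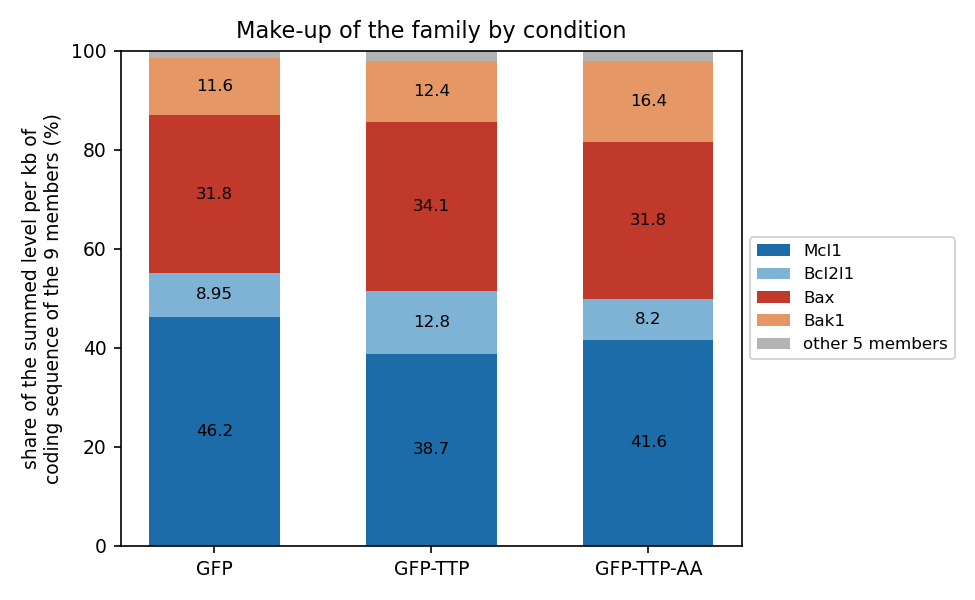
Share of each gene (%) in the summed level per kb of coding sequence of the 9 genes, by condition. Bars start at 0 and sum to 100. Bak1 takes 16.4% in GFP-TTP-AA and 12.4% in GFP-TTP macrophages, and Bcl2l1 8.2% and 12.8%.

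The genes most like Bcl2l1 and Bak1 were sought among the other 1034 genes past the threshold in GFP-TTP-AA against GFP-TTP macrophages, by the distance of their 2 log2 fold changes over GFP macrophages. For Bcl2l1 these were Mdc1 (distance 0.006), Rnf20 (0.011) and Dnmt1 (0.02), which code for a DNA damage mediator, a histone H2B ubiquitin ligase and the maintenance DNA methyltransferase. For Bak1 they were Rfk (0.013), Traf2 (0.015) and Clec4a1 (0.035), which code for riboflavin kinase, an adaptor of TNF receptors and a C-type lectin receptor. Within a distance of 0.1 there were 65 of these 1034 genes for Bcl2l1 and 39 for Bak1, a count among genes already past the threshold in this comparison. All these values come from the same 9 libraries.

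BH3-only proteins, which bind the survival proteins or activate BAX and BAK, showed calls in both comparisons with GFP-TTP-AA macrophages. Of 8 genes 5 were tested. Bbc3 (PUMA, a p53 target) had a level of 116.2 in GFP, 128.6 in GFP-TTP macrophages and 239.9 in those with GFP-TTP-AA, a log2 fold change of 1.05 ± 0.2 against GFP (adjusted p = 4.7e-05) and 0.9 ± 0.2 against GFP-TTP macrophages (adjusted p = 0.00031). Bcl2l11 (BIM) rose from 311.8 in GFP-TTP to 484 in GFP-TTP-AA macrophages (0.63 ± 0.22, adjusted p = 0.044). Against GFP macrophages (312.6) its change was also 0.63 ± 0.22 but not past the threshold (adjusted p = 0.097). Pmaip1 (NOXA, which binds MCL1) fell from 397.9 in GFP to 235.7 in GFP-TTP-AA macrophages (-0.76 ± 0.18, adjusted p = 0.0026). In GFP-TTP macrophages Pmaip1 had 292.9, with -0.44 ± 0.18 against GFP (adjusted p = 0.24). Between both TTP forms its change was -0.31 ± 0.18 (adjusted p = 0.3). The counts were 0 of 5 in GFP-TTP against GFP (1 with an unadjusted p under 0.05), 1 higher and 1 lower in GFP-TTP-AA against GFP, and 2 higher between both TTP forms, where 2.09%, 3.03% and 10.2% of all tested genes passed. The median log2 fold changes were -0.04, 0.01 and 0.11, beside 0, 0.01 and 0.01 for all tested genes. Relative to their chromosomes all 4 calls stayed past the threshold.

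Genes downstream of or beside the effectors are read against the same shares of all tested genes (2.09%, 3.03% and 10.2%) and the same medians (0, 0.01 and 0.01). These shares are of adjusted calls. Counts of unadjusted p-values are a description, and between both TTP forms no share of all genes is given for them. Of 11 genes of cytochrome c release and the apoptosome, all tested, 1 was lower in GFP-TTP against GFP, 0 passed in GFP-TTP-AA against GFP (2 with an unadjusted p under 0.05) and 1 was lower between both TTP forms, with medians of -0.02, 0.07 and 0.05. The lower genes were Casp6, an executioner caspase (145.2 in GFP and 91.9 in GFP-TTP macrophages, -0.66 ± 0.2, adjusted p = 0.043, but -0.48 and adjusted p = 0.3 relative to the median of -0.18 of its chromosome 3), and Aifm1, a mitochondrial flavoprotein (1084 in GFP-TTP macrophages and 732 in those with GFP-TTP-AA, -0.57 ± 0.17, adjusted p = 0.012). Of 9 genes listed as partners of BAX and BAK, 0 passed in either comparison with GFP macrophages (1 with an unadjusted p under 0.05 in each). They were Vdac1, Vdac2, Vdac3, Tmbim6, Sh3glb1, Ghitm, Bag1, Bag3 and Bag6, not all of which code for outer membrane proteins. Between both TTP forms Sh3glb1, which codes for the BAX-binding protein BIF-1, was the only one past the threshold (383.7 and 543 in GFP-TTP and GFP-TTP-AA macrophages, 0.5 ± 0.15, adjusted p = 0.014). It also lies on chromosome 3, with a median of 0.09 in this comparison, and relative to it the value was 0.41 with an adjusted p of 0.06, which ends the call. Their medians were -0.08, -0.06 and 0.03. Of 10 genes for turnover of MCL1, such as its ubiquitin ligase Huwe1 and its deubiquitinase Usp9x, 9 were tested and 0 passed in any comparison, with 1, 0 and 3 unadjusted p-values under 0.05 and medians of 0, 0.03 and -0.13. Of 11 other BCL2-related genes, 6 were tested and 0 passed in any comparison, with 0 unadjusted p-values under 0.05 and medians of -0.08, -0.01 and 0.17.

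**Figure D5:**
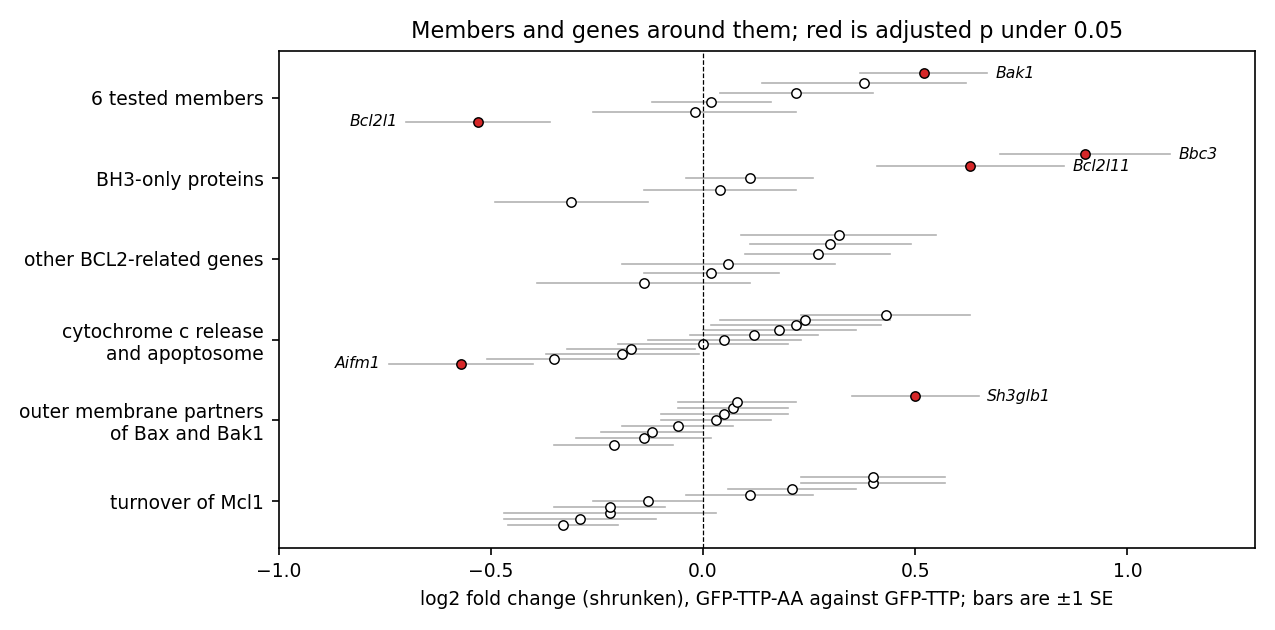
Shrunken log2 fold changes in GFP-TTP-AA against GFP-TTP macrophages for the 6 tested members and the tested genes of the 5 lists around them, with bars of 1 SE. The list labelled outer membrane partners also holds genes of proteins found elsewhere. Red and named are the genes with an adjusted p under 0.05, which are Bak1, Bbc3, Bcl2l11 and Sh3glb1 above 0 and Bcl2l1 and Aifm1 below 0.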

How the data were processed

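RiboSeq libraries of 9 samples were prepared by the submitters with ARTseq nuclease, size exclusion and rRNA depletion. Per the labels the reads were handled with Trim Galore, TopHat2 2.0.12 and HTSeq on GRCm38, and the authors fitted DESeq2 1.6.3 with library date and condition. The table that the authors deposited as normalized counts holds signal values, their model's fitted mean times the size factor of the library. Once a condition and a replicate term per gene were removed, its log2 values had an SD of 1.6e-15, so no spread between replicates is left. The authors' comparison tables hold shrunken log2 fold changes, their SE and Wald p-values. They also hold adjusted p-values and test statistics, which were not used. Strand handling in counting is not given in the sources used here.

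Size factors were recovered from the fitted values and the constants between same-numbered libraries. Log2 fold changes were computed from the fitted values, and the deposited SE and p-values were taken for errors. Genes with a mean scaled fitted value of at least 10 were kept (10103) and p-values adjusted over them (Benjamini-Hochberg, 0.05). The part of a change kept by shrinkage (k) was estimated from k(1 - k) being proportional to the squared SE, which is largest (0.25) for fitted means of 20 to 30. Counting intervals are not given, as no counts were used. Annotation and sequences are from GENCODE vM21 on GRCm38. Windows were searched exactly on both strands of 22 chromosome sequences. Steps were run with Python 3 (numpy, pandas, scipy, matplotlib). Only the recovery of size factors and the calls were tried on simulated data. Those data were built with the same model, so they do not test whether the model holds. Members, lists and the rule for named genes (all members, Zfp36, at most 4 called genes per list and comparison, A1 copies, the 3 most alike genes) were chosen with earlier results of these data known. Alternatives were other filters, adjustment over the 3 comparisons together, centring on all genes or on the chromosome, a pseudocount of 10 and another coding length.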

Additional observations from a re-analysis of the deposited data

How the results depend on the processing

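The p-values come from the authors' fit, which holds library date as a term, and the fitted values carry a term per replicate number in all conditions. No paired analysis was possible beyond this, nor one without the term, because the table holds fitted values without residual spread, and for the same reason leaving out single replicates was not run. For the 6 tested members in 3 comparisons, calls and directions stayed without a filter, with a fitted mean of at least 50 (Bcl2a1b is then not tested), with adjustment over the 3 comparisons together, and after centring on the median of all kept genes. Directions also stayed with a pseudocount of 10. Centring on the chromosome left 1 member past the threshold in GFP-TTP-AA against GFP-TTP macrophages, as Bcl2l1 came to -0.47 (adjusted p = 0.056), and Bax, not past the threshold, turned to -0.002 there. Over the alternatives the adjusted p ranged from 0.0087 to 0.021 for Bak1 and from 0.021 to 0.056 for Bcl2l1 in this comparison, and from 0.074 to 0.1 for Bak1 against GFP macrophages. With all coding exons as length, the order of the members kept, and levels per kb in GFP macrophages came to 3.7 for Bcl2l2, 0.316 for Bok and 721 for Bak1, with no observed spread to set this against. Of the called list genes, only Casp6 and Sh3glb1 lost their call relative to the chromosome, an alternative chosen after seeing the data. The fitted values of Bcl2l2, Bcl2a1d and Bok are too low for a change to be given, and the cause was not tested.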
